A study of Mus musculus with 12 samples.

Results

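The 9 genes Tdrd1, Tdrd3, Tdrd5, Tdrd6, Tdrd7, Tdrd9, Tdrd12, Stk31 and Rnf17, which encode proteins with Tudor domains, were followed in sorted mouse spermatogonia with and without Tet1. They were chosen by gene symbol, with earlier results of these data known, and all 9 were matched to an identifier in a count table of 53715 genes. All 9 also passed the filter on low counts, which left 19815 genes to test. None of the 9 differed past the test's threshold between genotypes or ages. Their levels ranged from Stk31 and Rnf17, the most abundant of the 9, to Tdrd6, the least abundant on average. Tdrd6 had 3 counts in its lowest library, and in 2 libraries it lay far above its own level in the others.

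RNA was measured in 12 libraries in 4 groups of 3. The groups were Tet1KO mice of 3 months, WT mice of 3 months, Tet1KO mice of 11 months and WT mice of 11 months, all on a C57BL6/129 background. Per the labels, 1000 sorted testis cells went into each library (fluorescence-activated sorting), and their RNA was amplified with Smart-seq2, which makes full-length cDNA from few cells. TET1 oxidises 5-methylcytosine, a step in removing methylation from DNA. The sources used here give neither the allele of Tet1 nor the markers of the sort. They also do not state whether replicate libraries stem from different mice, so the p-values cover the spread among these libraries alone, and that spread may be technical.

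Tudor domains are folds that bind methylated arginine or lysine. In germ cells, PIWI proteins and their partners carry methylarginine, added by PRMT5 and related enzymes, and Tudor proteins gather them into granules without a membrane. These granules are the intermitochondrial cement of spermatogonia and spermatocytes and the chromatoid body of spermatids, where PIWI-interacting RNAs (piRNAs) are made and used against transposons. TDRD3 stands apart from the other members as a broadly expressed protein that reads methylarginine on histones and on RNA polymerase II and works with the topoisomerase TOP3B.

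RefSeq gave promoter windows for 7 of the 9 members, and the others, Tdrd6 and Rnf17, are named only. In the 250 bases before the most upstream RefSeq start of each of these 7 genes, the number of CpG dinucleotides, the sites at which mammalian DNA is methylated, ran from 3 in Tdrd7 to 40 in Tdrd5. The median was 11 in these 7 windows, against 6 over all 32851 windows of the table, which holds 27025 genes and several windows for some. The value depended on the start taken. Starts further downstream had 28 and 29 CpG in Tdrd7, and 22 and 3 in Tdrd1. Over all 13 windows of the 7 members the median was 21. Methylation was not measured in these samples. The 4 windows below, with 21 to 5 CpG, are a selection that leaves out Tdrd5 (40), Tdrd3 (32) and Tdrd7 (3). They are printed on the gene's own strand in GRCm38.p6, 5′ to 3′, with each CpG in capitals. Stk31 has chr6:49395289-49395538 (plus strand), Tdrd1 has chr19:56825959-56826208 (plus strand), Tdrd9 has chr12:111971309-111971558 (plus strand) and Tdrd12 has chr7:35537745-35537994 (minus strand).
Stk31: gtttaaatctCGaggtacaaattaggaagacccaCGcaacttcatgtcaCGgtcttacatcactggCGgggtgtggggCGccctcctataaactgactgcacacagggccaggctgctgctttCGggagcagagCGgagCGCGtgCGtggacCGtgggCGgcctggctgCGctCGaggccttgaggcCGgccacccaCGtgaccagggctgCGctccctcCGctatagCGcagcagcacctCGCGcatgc
Tdrd1: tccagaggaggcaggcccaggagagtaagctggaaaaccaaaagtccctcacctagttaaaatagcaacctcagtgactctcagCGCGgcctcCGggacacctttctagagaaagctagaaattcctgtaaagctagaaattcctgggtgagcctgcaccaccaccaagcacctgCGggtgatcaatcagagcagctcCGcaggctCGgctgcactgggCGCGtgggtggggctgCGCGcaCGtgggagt
Tdrd9: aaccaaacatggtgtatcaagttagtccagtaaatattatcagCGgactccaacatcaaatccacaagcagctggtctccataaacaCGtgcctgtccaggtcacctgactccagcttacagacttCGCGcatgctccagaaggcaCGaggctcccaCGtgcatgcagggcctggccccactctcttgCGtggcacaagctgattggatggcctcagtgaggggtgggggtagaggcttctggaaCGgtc
Tdrd12: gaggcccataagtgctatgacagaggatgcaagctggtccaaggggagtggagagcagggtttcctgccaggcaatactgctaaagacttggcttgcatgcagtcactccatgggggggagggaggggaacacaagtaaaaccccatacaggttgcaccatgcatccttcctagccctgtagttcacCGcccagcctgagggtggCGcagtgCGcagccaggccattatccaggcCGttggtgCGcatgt

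Stk31 held 21 CpG in this window, Tdrd1 held 11, Tdrd9 held 8 and Tdrd12 held 5. The palindrome CACGTG, the E-box letters read by MAX-type factors, occurred in 3 of the 7 genes (Stk31, Tdrd1 and Tdrd9), and 6.02% of all windows held it. In Stk31 it began 55 bases before the start, in Tdrd1 11 bases before it, and in Tdrd9 it occurred at 165 and at 95 bases. TCCCGC, the letters of the E2F6 motif, searched on both strands, occurred in Tdrd3 and Tdrd5 and in 16.9% of all windows. CAACTG, a form of the MYB motif, searched on both strands, occurred in Tdrd7 alone among the 7 windows and in 11.1% of all windows. No window of the 7 held more than 1 of these 3 motifs, and a match describes letters only.

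Total counts ran from 8325159 to 18223645 per library, at which 3 counts correspond to 0.162 to 0.402 CPM (counts relative to library size, scaled by TMM), the level that a count of 0 allows. Tet1 itself had 6, 11 and 18 counts in Tet1KO libraries of 3 months against 15, 16 and 0 in WT, and 1, 17 and 5 counts in Tet1KO libraries of 11 months against 1, 16 and 5 in WT, so it did not separate the genotypes. Since the deleted part of the gene is not given, this does not check the labels. The first principal component (39.0% of the variance) separated a pair of 3-month libraries, Tet1KO replicate 2 and WT replicate 1, with 30010 and 29420 genes detected against 26995 at most elsewhere. Results are given with and without them where they matter. Germ cell markers, taken as sums, were present in every library. The 9 genes of differentiating spermatogonia summed to 757 to 1762 CPM per library and the 12 genes of undifferentiated spermatogonia to 208 to 416 CPM. Of the latter, Nanos2 was at 0 in Tet1KO replicate 1 of 11 months. The 13 spermatocyte markers summed to 1490 to 4424 CPM. These sums hold unlike numbers of genes and are not scaled by length, so they were not compared between cell types. Markers of other testis cells were also present. The 11 Sertoli cell genes summed to 31.2 to 103 CPM in Tet1KO libraries against 130 to 407 CPM in WT at 3 months, and to 29.1 to 44.5 CPM in Tet1KO libraries against 12.7 to 168 CPM in WT at 11 months. The 6 peritubular myoid genes summed to 75.3 to 359 CPM in Tet1KO libraries against 94.1 to 341 CPM in WT at 3 months, and to 23.2 to 54.5 CPM in Tet1KO libraries against 69.7 to 232 CPM in WT at 11 months. The 9 leukocyte genes summed to 176 to 375 CPM in Tet1KO libraries against 180 to 359 CPM in WT at 3 months, and to 277 to 578 CPM in Tet1KO libraries against 53.4 to 568 CPM in WT at 11 months. Of the 5 Leydig cell genes, Hsd3b1 was at 0 in all but 1 library and Cyp17a1 in all but 1. Cyp11a1 had 0 to 16 counts, and Star had 22 to 83 counts in every library. Insl3 had 192 counts in Tet1KO replicate 2 of 3 months, 41 in WT replicate 1 of 11 months and 3 at most elsewhere. The 5 genes summed to 13.2 CPM at most. The part of these cells in the results was not tested. In bulk RNA, fewer cells of a type and less RNA per cell cannot be told apart.

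**Figure D1:**
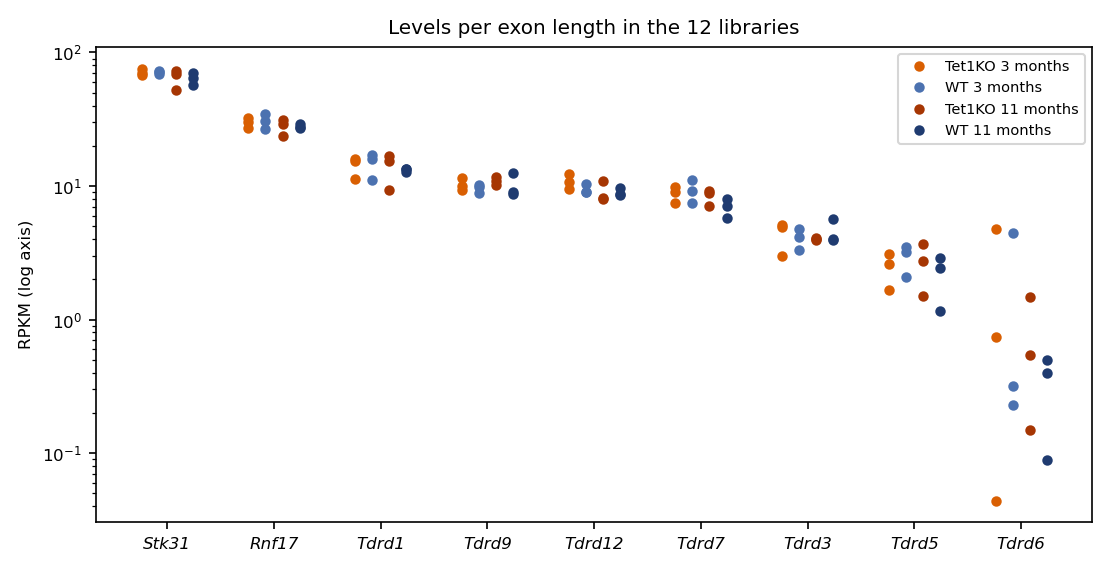
Level of each of the 9 genes per exon length, in RPKM on a log axis, with 1 point per library, coloured by group. Stk31 and Rnf17 lie above every value of the other genes, and Tdrd6 covers the widest range, 0.0439 to 4.79 RPKM.

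Levels of different genes were compared per length, as RPKM over the exon length of each gene in the count table. Averaged over the 12 libraries, Stk31 was highest at 67.7 ± 6.83 RPKM (SD), followed by Rnf17 at 29.0 ± 2.88, Tdrd1 at 13.96 ± 2.48 and Tdrd9 at 10.2 ± 1.21. Tdrd12 followed at 9.57 ± 1.29 RPKM, Tdrd7 at 8.33 ± 1.43, Tdrd3 at 4.25 ± 0.756, Tdrd5 at 2.54 ± 0.797 and Tdrd6 at 1.14 ± 1.67. The ranges of neighbours in this order did not overlap at 3 places: between Stk31 and Rnf17, between Rnf17 and Tdrd1, and between Tdrd7 and Tdrd3. Elsewhere they did. Tdrd1 exceeded Tdrd9 in 11 of 12 libraries, Tdrd9 exceeded Tdrd12 in 8 and Tdrd12 exceeded Tdrd7 in 8. Tdrd3 exceeded Tdrd5 in 10 of 12 libraries, and Tdrd5 exceeded Tdrd6 in 10. The 2 libraries in which Tdrd6 was the higher of that pair were the 2 set apart by the first component. Together the 9 genes made up 602 to 730 CPM of a library, of which Stk31 and Rnf17 accounted for 52.5% to 66.3%.

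**Figure D2:**
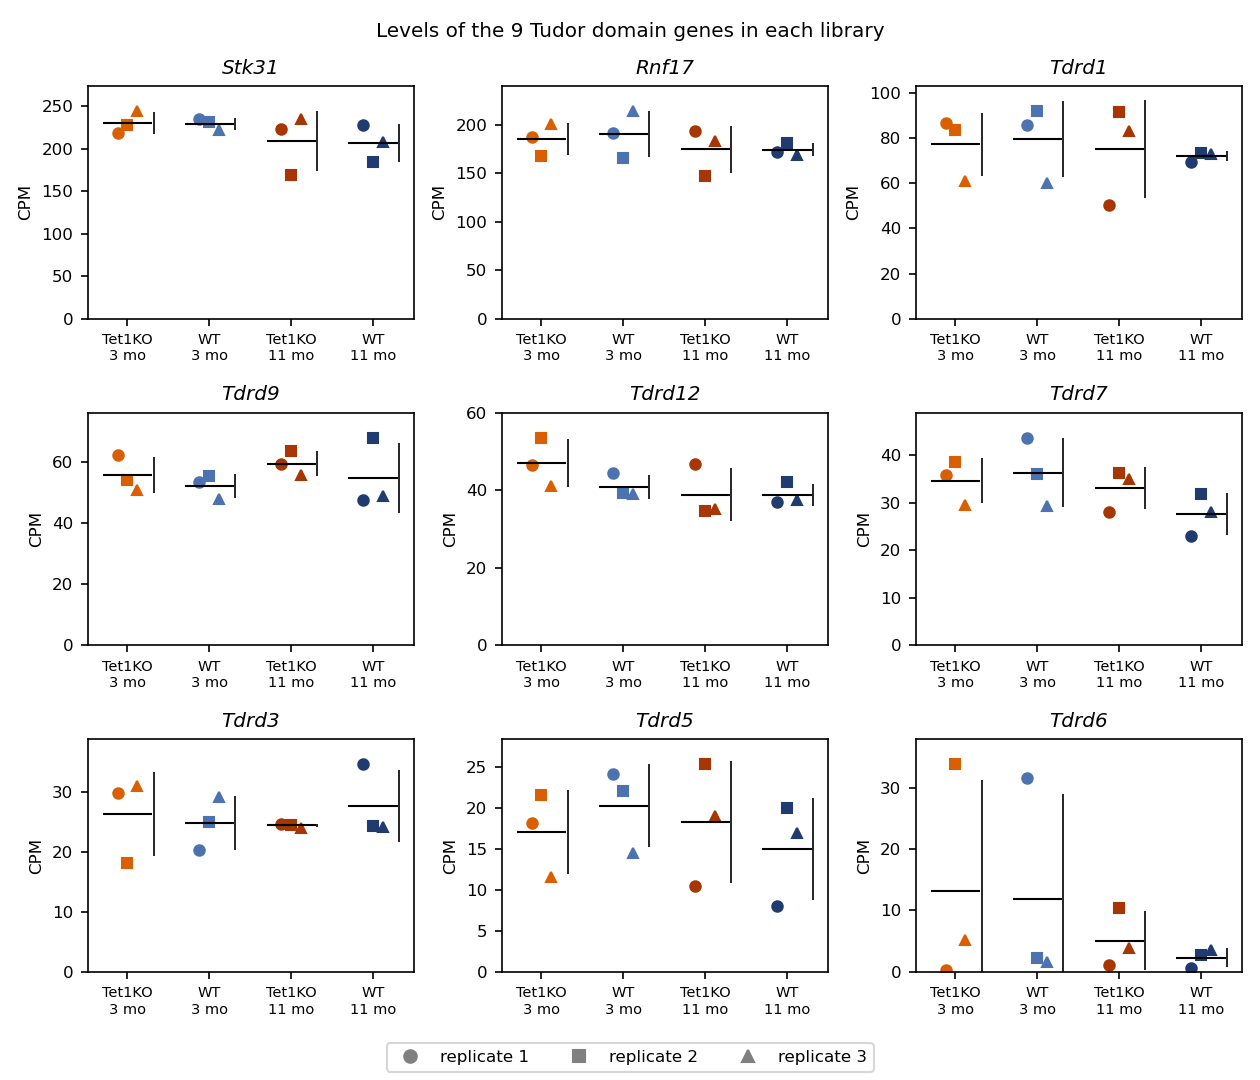
CPM of each of the 9 genes in every library by group, with marker shape for the replicate, a horizontal line for the mean of 3 libraries and a vertical line for the SD, drawn from 0 where it would reach below it. Tet1KO and WT points overlap in each panel, and in the Tdrd6 panel 1 library of each genotype at 3 months stands far above the rest.

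Stk31 encodes a protein that joins a Tudor domain to a kinase-like domain, and Rnf17, also called Tdrd4, a RING finger protein with several Tudor domains that is needed in mice for spermatids to mature. Stk31 (ENSMUSG00000023403.14, mm10 chr6:49395604-49469501, plus strand) had 219, 228 and 245 CPM in Tet1KO libraries of 3 months, against 235, 232 and 222 CPM in WT. At 11 months it had 223, 169 and 235 CPM in Tet1KO and 229, 185 and 208 CPM in WT. The lowest value was that of Tet1KO replicate 2 of 11 months, and the groups overlapped. Rnf17 (ENSMUSG00000000365.9, mm10 chr14:56402581-56525032, plus strand) had 188, 168 and 201 CPM in Tet1KO and 191, 166 and 214 CPM in WT at 3 months. Its 11-month values were 194, 147 and 183 CPM in Tet1KO and 172, 182 and 169 CPM in WT, with the same library lowest. Across the 12 libraries the SD of log2 CPM was 0.16 for Stk31 and 0.14 for Rnf17, and 9.82% and 6.46% of the 10009 tested genes with an average log2 CPM of at least 3 had a lower one. Of the 36 pairs of members, these 2 had the smallest mean absolute difference between their centred log2 levels over the 12 libraries, 0.11. They also had the lowest SDs of the members, so a small difference does not show that they varied together.

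Tdrd1, Tdrd9 and Tdrd12 act in the piRNA pathway that silences transposons in the mouse germ line. TDRD1 binds the PIWI protein MILI in the intermitochondrial cement, TDRD9 is an RNA helicase that works with MIWI2, and TDRD12 is a helicase-like protein needed for secondary piRNAs. Tdrd1 (ENSMUSG00000025081.13, mm10 chr19:56826209-56870012, plus strand) had 86.9, 83.8 and 61.2 CPM in Tet1KO and 86.0, 92.1 and 60.4 CPM in WT at 3 months, and 50.5, 91.6 and 83.1 CPM in Tet1KO libraries against 69.5, 73.4 and 73.2 CPM in WT at 11 months. Replicate 3 was low in both groups of 3 months, and the WT libraries of 11 months lay close together. Tdrd9 (ENSMUSG00000054003.13, mm10 chr12:111971559-112068854, plus strand) had 62.0, 54.1 and 50.7 CPM in Tet1KO libraries against 53.3, 55.3 and 47.8 CPM in WT at 3 months, and 59.1, 63.5 and 55.5 CPM in Tet1KO libraries against 47.3, 67.8 and 48.7 CPM in WT at 11 months. One WT library of 11 months held its highest value and another its lowest. Tdrd12 (ENSMUSG00000030491.16, mm10 chr7:35469098-35537745, minus strand) had 46.5, 53.7 and 41.2 CPM in Tet1KO and 44.6, 39.3 and 39.2 CPM in WT at 3 months. At 11 months it had 46.9, 34.8 and 35.2 CPM in Tet1KO and 37.1, 42.1 and 37.5 CPM in WT. The Tet1KO groups of Tdrd12 were the more scattered at each age, with an SD of 6.29 CPM against 3.10 CPM in WT at 3 months and 6.87 CPM against 2.79 CPM in WT at 11 months. For Tdrd9 the SD was 5.81 CPM in Tet1KO against 3.91 CPM in WT at 3 months, but 4.01 CPM against 11.5 CPM at 11 months. Differences in spread were not tested.

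Tdrd5, Tdrd6 and Tdrd7 encode proteins of the chromatoid body, the granule of round spermatids, and male mice that lack any single one of them are sterile. Tdrd7 (ENSMUSG00000035517.17, mm10 chr4:45965334-46034761, plus strand) had 36.0, 38.6 and 29.5 CPM in Tet1KO and 43.8, 36.0 and 29.4 CPM in WT at 3 months. At 11 months it had 28.1, 36.3 and 35.0 CPM in Tet1KO and 23.0, 31.9 and 28.2 CPM in WT. The 3 WT libraries of 11 months included the lowest of all 12, and the highest was WT replicate 1 of 3 months. Tdrd5 (ENSMUSG00000060985.15, mm10 chr1:156255296-156303664, minus strand) had 18.1, 21.6 and 11.5 CPM in Tet1KO libraries against 24.1, 22.1 and 14.5 CPM in WT at 3 months, and 10.4, 25.3 and 19.05 CPM in Tet1KO libraries against 8.01, 19.95 and 16.9 CPM in WT at 11 months. Its values scattered within every group, and its SD of log2 CPM, 0.51, was higher than that of 90.4% of the 10009 genes. Tdrd5 shares 176 exon bases (2.54% of its exon length) with 4930518J20Rik on the opposite strand, which had 0 to 95 counts, and counting without strand cannot tell them apart there. No other member shares exon bases with another gene.

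Tdrd6 (ENSMUSG00000040140.14, mm10 chr17:43615335-43630299, minus strand) had 3, 628 and 54 counts in Tet1KO and 418, 22 and 12 counts in WT at 3 months, and 17, 103 and 46 counts in Tet1KO and 10, 48 and 32 counts in WT at 11 months. In CPM these were 0.310, 33.9 and 5.19 in Tet1KO against 31.6, 2.26 and 1.61 in WT at 3 months, and 1.05, 10.4 and 3.84 in Tet1KO against 0.631, 2.80 and 3.51 in WT at 11 months. In Tet1KO replicate 1 of 3 months it was at the limit that 3 counts set. The SD of its log2 CPM was 1.92, higher than that of 98.8% of the 19815 tested genes, and 1.34 without the 2 libraries that stood apart.

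Tdrd3 (ENSMUSG00000022019.16, mm10 chr14:87416639-87545504, plus strand) had 29.8, 18.2 and 31.0 CPM in Tet1KO and 20.3, 25.0 and 29.1 CPM in WT at 3 months. At 11 months it had 24.6, 24.5 and 24.1 CPM in Tet1KO and 34.6, 24.3 and 24.1 CPM in WT. Its 3 Tet1KO libraries of 11 months were nearly equal (24.4 ± 0.301 CPM, SD, n = 3), and its 2 lowest values were those of the 2 libraries that stood apart.

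**Figure D3:**
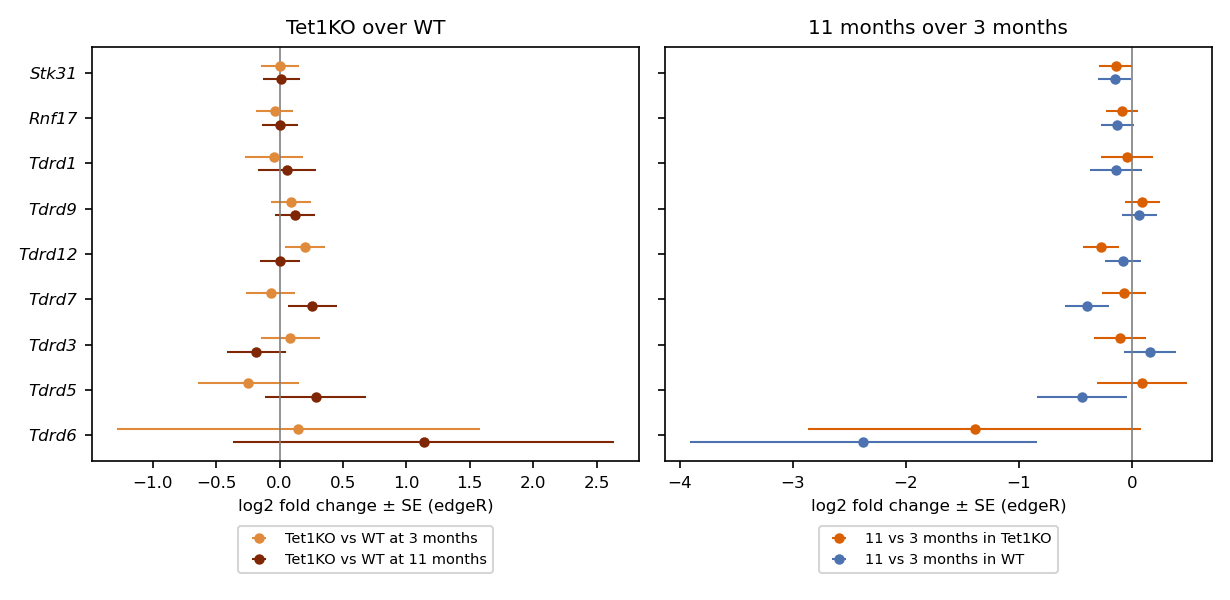
Log2 fold change with its standard error for each of the 9 genes, Tet1KO over WT in the left panel and 11 over 3 months in the right panel, from edgeR. Apart from Tdrd6, each value lies between -0.44 and 0.29, and the widest bars are those of Tdrd6.

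Whether loss of Tet1 changed these genes in younger mice was addressed by comparing Tet1KO with WT at 3 months. No member passed the threshold of an adjusted p of 0.05 (0 of 9), and the percent called over all 19815 genes was 0% as well, by edgeR's quasi-likelihood test with Benjamini-Hochberg adjustment. At an unadjusted p under 0.05 edgeR had 225 genes (1.14%), none of them a member, while DESeq2 called 2 genes and limma-voom 0, also without a member. The log2 fold changes of the members, Tet1KO over WT, ran from -0.25 ± 0.40 (SE) for Tdrd5 to 0.20 ± 0.16 for Tdrd12, with 5 above 0 and 4 below it. Their median was 0.0034, against -0.022 over all genes tested, of which 46.8% were above 0. Tdrd12 averaged 47.1 ± 6.29 CPM in Tet1KO and 41.0 ± 3.10 CPM in WT (SD, n = 3 each), which an exact two-sided permutation test gave p = 0.2, where 0.1 is the smallest p that 3 libraries against 3 allow. Stk31 had the value nearest 0, 0.0034 ± 0.15, with a 95% interval of -0.32 to 0.32. Without Tdrd6 the intervals of the other 8 members lay between -1.11 and 0.62, and the widest, that of Tdrd5, reached down to 0.462 of the WT level. Tet1KO and WT libraries overlapped in each of the 9 members, while 6.94% of all tested genes had groups that did not overlap.

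The value of Tdrd6 at 3 months depended on single libraries. It averaged 13.1 ± 18.1 CPM in Tet1KO and 11.8 ± 17.1 CPM in WT (SD, n = 3 each), which is a log2 fold change of 0.15 ± 1.43. Without Tet1KO replicate 2 the fold change was -2.11 ± 1.56, and without WT replicate 1 it was 2.76 ± 1.57. With both left out it was 0.51 ± 1.23, and the adjusted p was at least 0.998 in these fits.

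The same comparison in older mice, Tet1KO against WT at 11 months, called 0 of 9 members, where the percent called over all genes was 0%. The edgeR count at an unadjusted p under 0.05 was 326 genes (1.65%), none a member, and DESeq2 called 3 genes and limma-voom 0, none a member. Here 8 of the 9 log2 fold changes were above 0, with a median of 0.058 against 0.024 over all genes and 53.8% of all genes above 0. Rnf17 (0.0044 ± 0.14), Tdrd12 (0.0017 ± 0.16) and Stk31 (0.014 ± 0.15) lay closest to 0. Tdrd7 averaged 33.1 ± 4.37 CPM in Tet1KO and 27.7 ± 4.47 CPM in WT (SD, n = 3 each), which is a log2 fold change of 0.26 ± 0.20 (95% interval -0.17 to 0.69, exact permutation p = 0.3). Tdrd3 was the single member below 0, at -0.18 ± 0.23. Without Tdrd6 the intervals of the other 8 members lay between -0.69 and 1.16. The widest was that of Tdrd5 (0.29 ± 0.40), which reached up to 2.23 times the WT level. Tdrd6 averaged 5.08 ± 4.77 CPM in Tet1KO and 2.31 ± 1.499 CPM in WT, which is a log2 fold change of 1.14 ± 1.51 that was 0.083 ± 1.72 without Tet1KO replicate 2. No member had groups that did not overlap, against 5.36% of all tested genes.

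Age was compared within each genotype, 11 against 3 months. These comparisons share their libraries with those between genotypes. In Tet1KO, 0 of 9 members passed, with 0% called over all genes by edgeR, 462 genes (2.33%) at an unadjusted p under 0.05, 7 by DESeq2 and 0 by limma-voom, none a member. In WT, 0 of 9 members passed, with 0% called over all genes by edgeR, 1124 genes (5.67%) at an unadjusted p under 0.05, and 0 by DESeq2 and by limma-voom. In each genotype 7 of the 9 log2 fold changes were below 0, with a median of -0.086 in Tet1KO (-0.014 over all genes) and -0.14 in WT (-0.058 over all genes). Over all tested genes, 48.0% of the fold changes were above 0 in Tet1KO and 43.6% in WT, against 2 of 9 for the members in each. The members nearest the threshold were Tdrd7 in WT and Tdrd12 in Tet1KO. Tdrd7 averaged 27.7 ± 4.47 CPM in WT of 11 months and 36.4 ± 7.202 CPM in WT of 3 months (SD, n = 3 each), a log2 fold change of -0.40 ± 0.20 with an adjusted p of 0.774 by edgeR and an exact permutation p of 0.2. In Tet1KO the change of Tdrd7 with age was -0.068 ± 0.19. Without WT replicate 1 of 3 months the WT value was -0.24 ± 0.21, and without WT replicate 1 of 11 months it was -0.26 ± 0.21. It was -0.50 ± 0.19 without WT replicate 3 of 3 months and -0.51 ± 0.22 without WT replicate 2 of 11 months, where the unadjusted p was 0.0269 and 0.0400 and the adjusted p by edgeR 0.658 and 0.9998. Tdrd12 averaged 38.9 ± 6.87 CPM in Tet1KO of 11 months and 47.1 ± 6.29 CPM in Tet1KO of 3 months, a log2 fold change of -0.28 ± 0.16 with an adjusted p of 0.9999 by edgeR and an exact permutation p of 0.3. It was -0.17 ± 0.17 without Tet1KO replicate 2 of 3 months and -0.43 ± 0.16 without Tet1KO replicate 1 of 11 months. In WT, Tdrd12 was at -0.077 ± 0.16. Tdrd5 was at -0.44 ± 0.40 in WT (95% interval -1.31 to 0.43) and at 0.093 ± 0.40 in Tet1KO. The lowest age fold changes were those of Tdrd6, -1.39 ± 1.47 in Tet1KO and -2.38 ± 1.54 in WT, and they turned to 0.86 ± 1.11 and 0.23 ± 1.13 without the 2 libraries of 3 months that stood apart. Groups that did not overlap were found for 0 of 9 members in each genotype, against 6.2% of all tested genes in Tet1KO and 11.5% in WT.

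The difference of the genotype effect between ages was tested as an interaction. It called 0 of 9 members and 0% of all genes. At an unadjusted p under 0.05 there were 311 genes (1.57%), with 0 by DESeq2 and by limma-voom. Tdrd7 had the lowest unadjusted p among the members, with a log2 difference of 0.33 ± 0.28 (95% interval -0.27 to 0.93). For Stk31 it was 0.011 ± 0.21, for Rnf17 0.042 ± 0.20, and for Tdrd6 0.99 ± 2.07. Apart from Tdrd6 the largest was that of Tdrd5, 0.53 ± 0.56 (95% interval -0.70 to 1.76). The Tdrd6 value turned on single libraries and ran from -1.63 ± 1.95 without WT replicate 1 of 3 months to 3.24 ± 2.04 without Tet1KO replicate 2 of 3 months. It was 0.63 ± 1.57 without both, -0.071 ± 2.27 without Tet1KO replicate 2 of 11 months and 0.066 ± 2.89 with the replicate block.

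**Figure D4:**
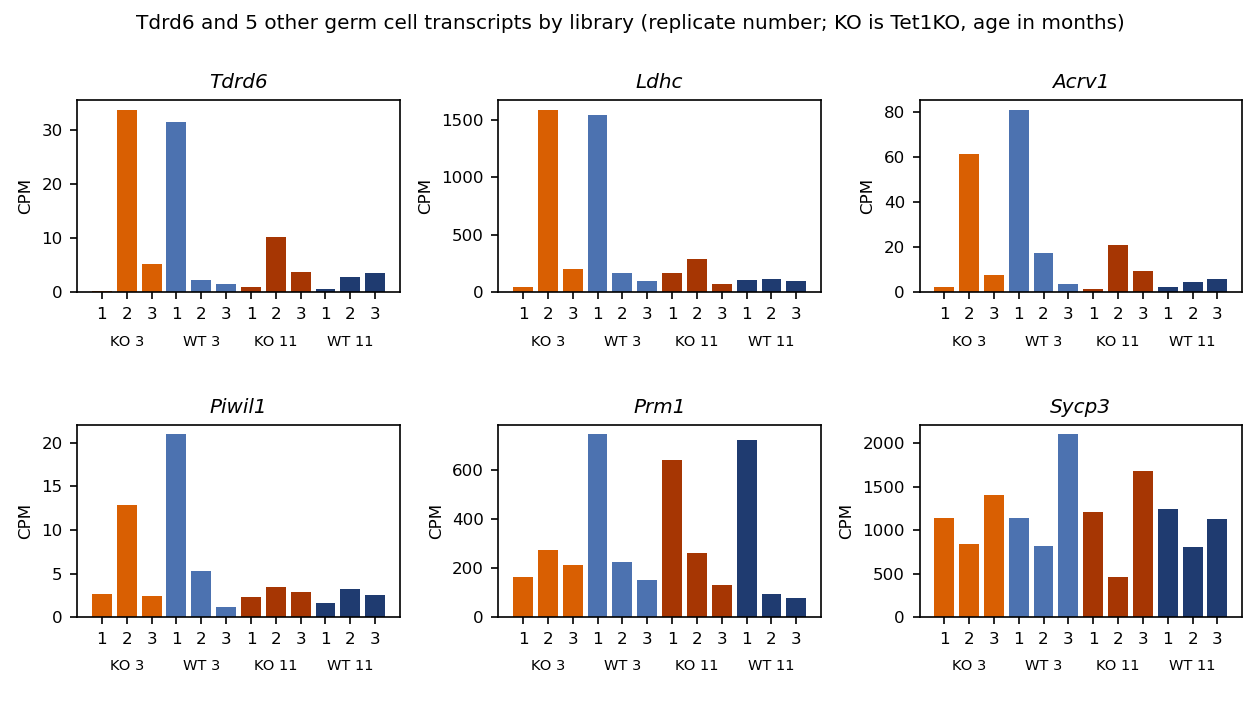
CPM of Tdrd6 and of 5 other germ cell genes in each of the 12 libraries, bars grouped by genotype and age in months, with the replicate number under each bar. Tdrd6, Ldhc, Acrv1 and Piwil1 are highest in the same 2 libraries of 3 months, while Prm1 is also high in replicate 1 of 11 months in both genotypes and Sycp3 is not high there.

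Of the 9 members, 3 separated the pair of 3-month libraries that stood apart, Tet1KO replicate 2 and WT replicate 1. These 2 libraries were defined from the data and are not groups of the study, so their values are a description with no test. Tdrd6 had 33.9 CPM in that Tet1KO library and 31.6 CPM in that WT library against 10.4 CPM at most elsewhere, 13.4 and 12.5 times the median of the other 10. Tdrd7 had 38.6 and 43.8 CPM against 36.3 CPM at most, 1.26 and 1.43 times that median. Tdrd3 went the other way, with 18.2 and 20.3 CPM against 24.1 CPM at least. Over all tested genes, 15.6% lay above all other 10 libraries in these 2 and 4.07% lay below all of them. Stk31 (228 and 235 CPM, against a median of 223 CPM in the other 10) and Tdrd9 (54.1 and 53.3 CPM, against 55.4 CPM) were not set apart.

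Some genes of later germ cells were high along with Tdrd6 in these libraries. Of 13 spermatocyte markers, 6 lay above all other 10 libraries (Spo11, Adam2, Ldhc, Pgk2, Hspa2 and Ccna1). Ldhc, the lactate dehydrogenase of spermatocytes and sperm, had 1590 and 1545 CPM there against 292 CPM at most elsewhere. The axis and synaptonemal complex genes Sycp1, Sycp2, Sycp3 and Hormad1 were not among the 6, and Sycp3 had 841 and 1144 CPM against a median of 1178 CPM. Of 14 spermatid markers, 7 lay above, among them Acrv1, an acrosome gene, at 61.2 and 81.1 CPM against 21.2 CPM at most. The protamine gene Prm1 had 275 and 747 CPM there, but replicate 1 of 11 months had 641 CPM in Tet1KO and 722 CPM in WT, where Tdrd6 was at 1.05 and 0.631 CPM. The library with the next highest Tdrd6 was Tet1KO replicate 2 of 11 months, at 10.4 CPM. Among the 6 spermatocyte and 7 spermatid markers that lay above, that library was also next highest for Adam2, Ldhc, Ccna1, Acrv1, Acr, Tssk1 and Odf1. Another library was next highest for Spo11, Pgk2, Hspa2, Spaca1, Spaca7 and Tssk2. Summed over the 14 markers, spermatid transcripts were at 722 to 1741 CPM in Tet1KO and 539 to 3329 CPM in WT at 3 months, and at 448 to 2673 CPM in Tet1KO and 329 to 2895 CPM in WT at 11 months. The part of such cells or of carried-over RNA in the values of Tdrd6 was not tested.

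The partners of the Tudor proteins were read in the same fits. Of 18 piRNA pathway genes, none was called in any of the 5 tests. PIWI genes differed in level and in behaviour. Piwil2, which encodes MILI, lay between 98.7 and 139 CPM in all 12 libraries, and Piwil4, which encodes MIWI2, between 3.39 and 7.90 CPM. Piwil1, which encodes MIWI, the PIWI protein of pachytene spermatocytes and spermatids, had 12.8 and 20.9 CPM in the 2 libraries that stood apart and 5.23 CPM at most in the others. Mael, Pld6, Gtsf1 and Ddx25 also lay above all other 10 libraries in those 2, so 5 of the 18 did, where 15.6% of all tested genes did. Mov10l1, an RNA helicase gene of the pathway, lay below all other 10 there, at 144 and 142 CPM against 146 CPM at least, and was the single one of the 18 to do so, where 4.07% of all tested genes did. Among the 18, the lowest and highest log2 fold changes of Tet1KO over WT were those of Exd1 (-0.78 ± 0.30) and Pnldc1 (0.28 ± 0.26) at 3 months, and of Pld6 (-0.30 ± 0.31) and Spocd1 (0.44 ± 0.86) at 11 months. Between ages they were Piwil1 (-1.06 ± 0.88) and Tex15 (0.22 ± 0.24) in Tet1KO, and Piwil1 (-1.91 ± 0.89) and Pld6 (0.34 ± 0.31) in WT. Without the 2 libraries that stood apart, the age value of Piwil1 was 0.18 ± 0.60 in Tet1KO and -0.42 ± 0.59 in WT, that of Tex15 in Tet1KO was 0.074 ± 0.27 and that of Pld6 in WT was 0.66 ± 0.33. The median over the list was 0.085 at 3 months and -0.023 at 11 months for Tet1KO over WT, and -0.21 in Tet1KO and -0.13 in WT for age. Over all tested genes these medians were, in the same order, -0.022, 0.024, -0.014 and -0.058.

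Other Tudor domain genes and the genes of arginine methylation had no call either. Of the 6 other Tudor genes, Tdrkh, whose protein tethers PIWI proteins to mitochondria, had 229 to 392 CPM. Per exon length it was lower than Smndc1, a splicing factor gene, with group means of 44.1 to 48.7 RPKM for Tdrkh and 59.6 to 64.1 RPKM for Smndc1. Akap1 had the highest log2 fold change of Tet1KO over WT at 11 months, 0.58 ± 0.23, which did not pass the threshold, and Smndc1 the lowest, -0.0082 ± 0.15. At 3 months the lowest was Smn1 (-0.19 ± 0.30) and the highest Snd1 (0.11 ± 0.18). The 5 genes of arginine methylation are the methyltransferases Prmt1, Prmt5 and Prmt7 and the PRMT5 cofactors Wdr77 and Clns1a. For Tet1KO over WT, all 5 were above 0 at 3 months (median 0.17) and 4 of 5 were below 0 at 11 months (median -0.11). Over all tested genes, 46.8% were above 0 at 3 months (median -0.022) and 53.8% at 11 months (median 0.024). The 5 genes ranged from Clns1a (0.089 ± 0.14) to Prmt5 (0.20 ± 0.19) at 3 months and from Prmt1 (-0.24 ± 0.36) to Prmt5 (0.042 ± 0.19) at 11 months. With age in WT, 4 of these 5 were above 0 (median 0.41) and 2 had an unadjusted p under 0.05 by edgeR. Over all tested genes, 43.6% were above 0 (median -0.058) and 5.67% had such a p. With age in Tet1KO, 3 of the 5 were above 0 (median 0.11, against -0.014 over all genes) and 0 had such a p. With age in WT the highest were Prmt1 (0.57 ± 0.37) among the 5 and Snd1 (0.39 ± 0.18) among the Tudor genes, and the lowest were Clns1a (-0.015 ± 0.14) and Lbr (-0.26 ± 0.16). With age in Tet1KO they were Prmt5 (0.27 ± 0.19) and Akap1 (0.43 ± 0.23), and Clns1a (-0.18 ± 0.14) and Smndc1 (-0.071 ± 0.15). Of the 4 partners of TDRD3, Top3b was highest at 3 months for Tet1KO over WT (0.37 ± 0.25) and Fmr1, the fragile X gene, lowest (-0.12 ± 0.26), while at 11 months Fxr2 was highest (0.061 ± 0.23) and Top3b lowest (-0.13 ± 0.25). Their age fold changes ran from Fxr1 (-0.038 ± 0.13) to Fxr2 (0.17 ± 0.23) in Tet1KO and from Fmr1 (-0.16 ± 0.26) to Top3b (0.50 ± 0.25) in WT. For the interaction, the extremes were Pld6 (-0.52 ± 0.44) and Piwil1 (0.85 ± 1.23), Snd1 (-0.084 ± 0.26) and Akap1 (0.68 ± 0.33), Prmt1 (-0.41 ± 0.52) and Prmt5 (-0.16 ± 0.27), and Top3b (-0.49 ± 0.35) and Fmr1 (0.17 ± 0.37).

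For each member the 3 most alike genes were found among 10009 genes, as the smallest mean absolute difference between log2 CPM centred on each gene's own mean, over the same 12 libraries. This is a description over shared libraries with no test. For Tdrd6 they were 1700020D05Rik (0.38), Prdx6b (0.46) and Gtf2a1l (0.47), where the median over all 10009 genes was 1.49. Gtf2a1l, a germ cell form of a general transcription factor subunit, had 160 and 112 CPM in the 2 libraries that stood apart and 37.2 CPM at most in the others, as Tdrd6 did at a lower level. For Stk31 they were Borcs7 (0.059), Kif18a (0.062) and Pcna (0.066), against a median of 0.24, and for Rnf17 Myo9a (0.043), Ythdc1 (0.047) and Cntd1 (0.051), against 0.22. For Tdrd1 they were Acly (0.10), Gm44170 (0.11) and Kctd10 (0.11), for Tdrd9 Smad2 (0.057), Nploc4 (0.058) and Mfn2 (0.060), and for Tdrd12 Fbxo30 (0.080), Rnf146 (0.080) and Mff (0.082). The Tdrd7 pattern was nearest to Srpk2 (0.072), Trim27 (0.082) and Zfp105 (0.090), that of Tdrd5 to Stk24 (0.15), Trim71 (0.16) and Arrdc3 (0.17), and that of Tdrd3 to Tgm4 (0.089), Wsb1 (0.091) and Dennd2c (0.097).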

How the data were processed

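The table of raw counts that the authors deposited covers 12 libraries in 4 groups of 3. It was made with featureCounts 1.6.2 on GENCODE vM17, per the file headers, keeping alignments of mapping quality 30 or more, ignoring strand and counting a fragment for every gene it overlaps. The submitters' processing notes also name HISAT2, SAMtools and mm10, with no versions for the tools. The exon length per gene came from the same table. The members and all gene lists were chosen with earlier results of these data known.

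From these counts, edgeR 4.0.16 (R 4.3.3) filtered genes with filterByExpr, scaled libraries by TMM and fitted 12 libraries with 1 mean per group. Contrasts were tested two-sided with the robust quasi-likelihood F test and Benjamini-Hochberg adjustment at 0.05. SE and 95% intervals of log2 fold changes came from the F statistic and its degrees of freedom. RPKM was computed from TMM-scaled CPM and exon length. The procedure was also run on simulated counts, in which libraries differed only in size, in random spread and in planted changes. Differences between whole libraries were not simulated, so the simulation does not show how the procedure handles them. Total counts were 8325159 to 18223645, and limits at 0 counts cover counting error alone, as reads without molecular identifiers are not independent molecules. Within groups, any 2 libraries differed beyond counting noise (chi-square per degree of freedom of 10.9 or more). Deviations of same-numbered libraries from their group means had r across genes of 0.46, 0.36 and 0.51 at 11 months (Tet1KO with WT). In WT between ages r was 0.25, 0.25 and 0.20. At 3 months (Tet1KO with WT) it was -0.66, -0.14 and 0.53, and in Tet1KO between ages 0.0086, 0.49 and 0.18. For pairs of unlike number at 11 months (Tet1KO with WT), r ran from -0.41 to -0.081. At 3 months libraries of unlike number could also correlate, as Tet1KO replicate 2 did with WT replicate 1 (0.75). The labels state no pairing, and these values do not establish one.

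Always named were the 9 members, Tet1, the 3 genes most like each member, and from each pathway list the highest and lowest fold change. The marker genes and the PIWI, Tdrkh, Smndc1, Mael, Mov10l1, Gtsf1 and Ddx25 levels were picked after their values were seen. Alternatives were other scalings and filters, DESeq2 1.42.0, limma-voom (limma 3.58.1), the compared groups alone, a replicate block, the library code prefix as a covariate, the 2 libraries of the rarer prefix left out, the 2 libraries that stood apart left out, genes of mitochondrial DNA and of ribosomal proteins removed, and each library left out in turn. Promoter windows are those of RefSeq (GRCm38.p6).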

Additional observations from a re-analysis of the deposited data

How the results depend on the processing

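No member passed the threshold in any of the 5 comparisons under any of the 24 alternatives that gave a fit (0 of 9 each), and the replicate block changed no call (0 genes called in each comparison with it). The count of genes past the threshold over all genes was 0 under each alternative except DESeq2, which called 2 genes for Tet1KO against WT at 3 months, 3 at 11 months and 7 for 11 against 3 months in Tet1KO. Leaving out each library in turn gave 0 calls throughout. Of 855 recomputed log2 fold changes of members, 111 changed sign, 109 of them in fold changes no larger than their own SE, which were taken to have no direction. The other 2 were Tdrd6 for 11 against 3 months in WT, -2.38 with all libraries and 0.23 without the 2 libraries that stood apart. Leaving out single libraries there gave -2.85 to 0.23, with 0.23 reached without WT replicate 1 of 3 months. Under limma-voom the Tdrd6 age value in Tet1KO was 0.10. An unadjusted p under 0.05 occurred for members 6 times among these fits. With libraries scaled to total counts, the mean of Tdrd3 in Tet1KO of 11 months was 24.9 CPM in place of 24.4, and that of Stk31 in WT of 3 months was 223 CPM in place of 230. The other levels moved by less than the SD of their group. The interaction uses all 4 groups, so fitting the compared groups alone has no separate value for it, and single libraries were left out only of the comparisons they enter. Depth limits Tdrd6 most, with 3 counts in its lowest library, whereas every other member had at least 108 counts in each library.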
